A study of Mus musculus with 6 samples.

Results

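The platelet-derived growth factor (PDGF) system was examined in the whole uterus of female mice killed on postnatal day 21. Its genes were taken by name from the deposited tables: the 4 ligand genes Pdgfa, Pdgfb, Pdgfc and Pdgfd, and the 2 receptor genes Pdgfra and Pdgfrb, which make 6 of the 20637 genes listed. All 6 passed the filter on low values described below. The series held 3 libraries from Nat10 f/f mice, which carry floxed Nat10 alleles and served as controls, and 3 from Nat10 d/d mice, in which Nat10 is deleted. Nat10 encodes an enzyme that acetylates cytidines in RNA. No Cre driver and no deleted cell type is named in the labels, and the groups differ in no labelled treatment besides the genotype. They also do not say whether a library is 1 animal or a pool, so the p-values below measure only the spread between these libraries.

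PDGF ligands are secreted as dimers and act through a pair of receptor tyrosine kinases. The alpha receptor (Pdgfra) binds the A, B and C chains, and the beta receptor (Pdgfrb) binds mainly the B and D chains. The A and B chains are cut inside the cell by furin-type convertases, whereas the C and D chains leave the cell in a latent form and are activated outside it by proteases such as tissue plasminogen activator (Plat, for the C chain) and urokinase (Plau, for the D chain). In many organs epithelium and endothelium make ligands, while fibroblasts carry the alpha receptor and pericytes and fibroblasts the beta receptor.

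On the mouse mm10 assembly (GENCODE release M21), Pdgfa (ENSMUSG00000025856) lies on chromosome 5 from 138976014 to 138997370 on the minus strand, and Pdgfra (ENSMUSG00000029231) on the same chromosome from 75152292 to 75198215 on the plus strand. Pdgfb (ENSMUSG00000000489) lies on chromosome 15 from 79995874 to 80014977 on the minus strand. Pdgfc (ENSMUSG00000028019) spans 81036416 to 81214040 of chromosome 3 and Pdgfd (ENSMUSG00000032006) 6168584 to 6378850 of chromosome 9, both on the plus strand.  Exons of Pdgfa, Pdgfc and Pdgfra overlap annotated antisense genes, and the tables do not list those. Strand use in the counting is not given in the sources used here, so reads of these 3 genes and of their antisense partners cannot be told apart.

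The bases upstream of the start sites are shown for the ligand gene with the highest ligand level (Pdgfc), for the receptor gene with the lower share of its control mean in deleted uteri (Pdgfra), and for a ligand gene whose group means were nearly equal (Pdgfd). They are 250 bases before the RefSeq start site on GRCm38.p6, plus strand, and hold no exon of the gene in GENCODE. Capitals mark matches to any of 4 motifs searched on both strands: the GC box GGGCGG, the TATA box TATAAA, the C/EBP motif TTGCNNAA and the AP-1 motif TGANTCA.
Pdgfc, chr3:81036166-81036415: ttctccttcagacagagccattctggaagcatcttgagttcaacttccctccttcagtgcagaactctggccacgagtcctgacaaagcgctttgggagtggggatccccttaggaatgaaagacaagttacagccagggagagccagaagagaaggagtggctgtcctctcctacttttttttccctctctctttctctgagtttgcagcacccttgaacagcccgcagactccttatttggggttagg
Pdgfd, chr9:6168236-6168485: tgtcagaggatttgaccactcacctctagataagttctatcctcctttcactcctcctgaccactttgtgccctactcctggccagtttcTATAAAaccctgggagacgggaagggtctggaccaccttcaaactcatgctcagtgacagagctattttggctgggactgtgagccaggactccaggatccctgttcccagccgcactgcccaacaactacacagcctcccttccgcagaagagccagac
Pdgfra, chr5:75152001-75152250: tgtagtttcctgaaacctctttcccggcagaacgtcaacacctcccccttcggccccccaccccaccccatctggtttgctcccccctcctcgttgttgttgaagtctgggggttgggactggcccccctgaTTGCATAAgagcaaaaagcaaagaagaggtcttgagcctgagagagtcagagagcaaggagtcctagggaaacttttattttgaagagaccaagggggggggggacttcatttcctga
The Pdgfra window held 1 C/EBP match, beginning at -118 from the start site, and 9.56% of 32851 RefSeq windows of the same length held at least 1. The Pdgfd window held 1 TATA match at -160, a motif present in 12.4% of windows. The marked TATA and C/EBP letters do not overlap each other or a match to another motif searched. No letters of the Pdgfc window matched any of the 4 motifs. The GC box was found in 32.7% of all windows and the AP-1 motif in 6.75%, and neither in these 3. A match is a description of letters, and none of these data measure binding.

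The deposited values are FPKM, fragments per kilobase of transcript, scaled to the mapped fragments of the library. Division by length allows levels of different genes to be compared. In controls, both receptor genes were above all ligand genes. Pdgfra had a mean of 78.5 ± 13.3 FPKM (SD, n = 3), above 93% of the 12640 genes tested. Pdgfrb followed with 55.4 ± 4.43 and Pdgfc with 33 ± 1.35 (SD, n = 3). Below them came Pdgfa with 26.7 ± 1.39, Pdgfb with 15.7 ± 1.38 and Pdgfd with 13.4 ± 1.23 FPKM (SD, n = 3), the last near the middle of all tested genes (50.3% lay below it). Each gene was above the next in all 3 controls. No neighbours' ranges overlapped in controls, the closest being Pdgfb (14.62 to 17.24 FPKM) and Pdgfd (12.14 to 14.59).

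The order of means was the same in Nat10-deleted uteri, but neighbours were less distinct. The ranges of Pdgfra and Pdgfrb overlapped, as did those of Pdgfrb and Pdgfc, of Pdgfc and Pdgfa, and of Pdgfb and Pdgfd. Pdgfrb was above Pdgfc in 1 of 3 deleted libraries, against 3 of 3 controls. Only Pdgfa and Pdgfb remained apart as neighbours, at 28.96 to 35.59 and 13.39 to 16.37 FPKM. The plot of FPKM by library shows these levels.

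**Figure D1:**
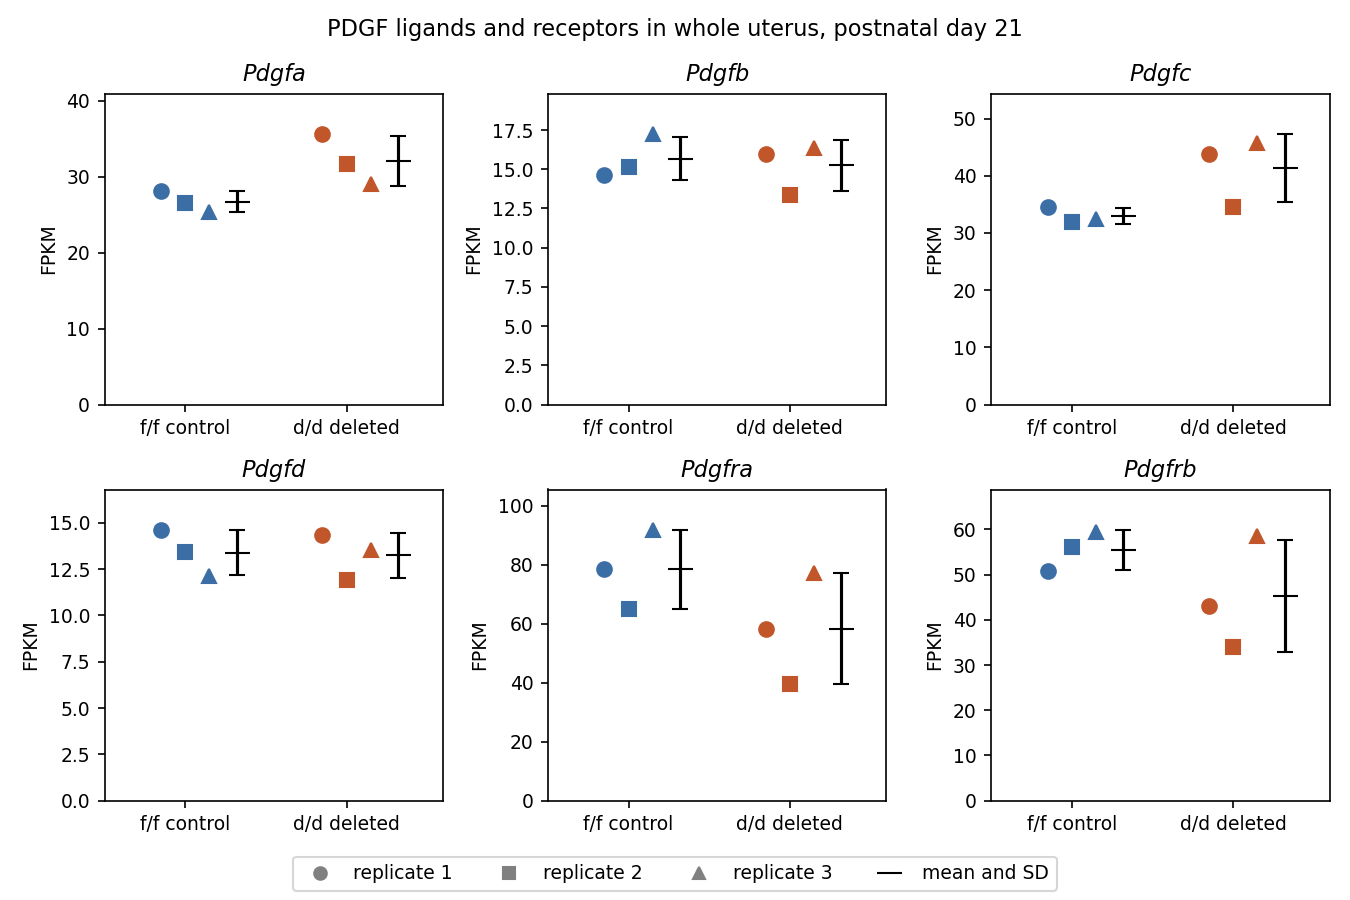
FPKM (y axis, from 0, with a separate scale for each gene) of the 4 PDGF ligand and 2 receptor genes in 3 f/f control and 3 d/d Nat10-deleted libraries. Symbols are libraries by replicate number and the black marks are mean and SD. All deleted libraries lie above all controls for Pdgfa and Pdgfc, and deleted replicate 2 (square) is the lowest of all 6 libraries for Pdgfb, Pdgfd, Pdgfra and Pdgfrb.

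The targeted gene and the libraries as a whole were checked before the comparison. Nat10 had 13.15, 16.36 and 9.951 FPKM in control replicates 1 to 3 and 5.571, 5.234 and 5.533 in deleted replicates 1 to 3, so the groups did not overlap. The deleted mean was 41.4% of the control mean. Changes below are differences of log2(FPKM + 1), deleted minus control, over the 12640 genes with at least 1 FPKM in at least 3 libraries. They were tested in limma with Benjamini-Hochberg adjustment over all these genes, and a gene is called at an adjusted p under 0.05. No gene was called (0% of those tested), and the smallest adjusted value was 0.669. Without adjustment, 630 genes (4.98%) had a p under 0.05. Deleted replicate 2 stood apart on the first principal component, with a score of 40.2 against -25.1 to 4.6 in the other 5 libraries. Its summed level of 10 proliferation genes was 199 FPKM, against 21.3 to 83.6 in controls and 10 and 19.4 in the other deleted libraries. Summed p53 target genes (10 genes) reached 588 FPKM in it, 267 and 283 in the other deleted libraries, and 168 to 191 in controls. Red cell genes summed to 851 to 5581 FPKM in controls and 709 to 1723 in deleted libraries.

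The uterine markers of the main compartments were present in every library. Summed over each marker list, the 14 stromal fibroblast markers reached 4849 to 5444 FPKM in controls and 3799 to 5438 in deleted libraries. The 9 smooth muscle markers reached 4141 to 4757 and 3856 to 4906, and the 11 epithelial markers 868 to 938 and 829 to 1137. Ovary and oviduct markers summed to 4.39 to 7.94 FPKM in controls and 1.79 to 5.17 in deleted libraries over 7 genes, with Cyp19a1 and Zp3 listed at 0 in all 6.

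Among the ligands, Pdgfa and Pdgfc, both ligands of the alpha receptor, had higher means in deleted uteri, and neither difference was called. Pdgfa encodes the A chain, which in many organs signals from epithelium to the underlying mesenchyme. It had 28.15, 26.5 and 25.39 FPKM in control replicates 1 to 3 and 35.59, 31.66 and 28.96 in deleted replicates 1 to 3. Every deleted library was above every control, by as little as 28.96 against 28.15. The deleted mean was 120.2% of the control mean, a log2 change of 0.25 (SE 0.11, 95% interval -0.01 to 0.52; limma adjusted p 0.922).

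Pdgfc encodes the C chain, which carries a CUB domain that must be cut off before it can bind. It had 34.47, 31.89 and 32.49 FPKM in the controls and 43.84, 34.62 and 45.64 in deleted replicates 1 to 3. Deleted replicates 1 and 3 were well above the controls, while replicate 2 exceeded the highest control by 34.62 against 34.47 only. The deleted mean was 125.5% of the control mean. The log2 change was 0.31 (SE 0.13, 95% interval 0.01 to 0.61; unadjusted p 0.0461; limma adjusted p 0.922), and 0.43 without deleted replicate 2.

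Groups that do not overlap, with the deleted libraries higher, were seen for 2 of the 6 PDGF genes and for 6.12% of all genes tested. None of the 6 was lower without overlap, beside 4.6% of all genes. At an unadjusted p under 0.05, 1 PDGF gene (Pdgfc) was higher and none lower, beside 2.68% and 2.3% of all genes tested. For Pdgfc the separation was lost after median centring, upper-quartile scaling or quantile normalization, and for Pdgfa after quantile normalization only. The changes stayed above 0 under each of these scalings, at 0.21 to 0.22 for Pdgfa and 0.27 to 0.28 for Pdgfc.

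Pdgfb and Pdgfd, whose chains bind the beta receptor, had nearly equal means in both groups. The B chain binds the alpha receptor as well. Pdgfb encodes the B chain, made by endothelium and known for recruiting pericytes. It had 14.62, 15.16 and 17.24 FPKM in controls and 16, 13.39 and 16.37 in deleted replicates 1 to 3. The groups overlapped, with a log2 change of -0.04 (95% interval -0.33 to 0.25; limma adjusted p 0.989). Pdgfd encodes the D chain. It had 14.59, 13.43 and 12.14 FPKM in controls and 14.33, 11.93 and 13.51 in deleted replicates 1 to 3, a log2 change of -0.01 (95% interval -0.29 to 0.27; limma adjusted p 0.993). The sign of both changes turned when deleted replicate 2 was left out, to 0.05 for Pdgfb and 0.06 for Pdgfd.

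Both receptor genes had lower means in deleted uteri, with overlapping groups and no call. Pdgfra, widely used as a marker of fibroblasts, had 78.61, 65.05 and 91.74 FPKM in control replicates 1 to 3 and 58.29, 39.51 and 77.3 in deleted replicates 1 to 3. Deleted replicates 1 and 2 were below every control and replicate 3 lay inside the control range. The deleted mean was 58.4 ± 18.9 FPKM (SD, n = 3), or 74.38% of the control mean. On the log2 scale this was a change of -0.46 (SE 0.24, 95% interval -1.03 to 0.11; limma adjusted p 0.922). It was -0.21 without deleted replicate 2 and -0.68 without deleted replicate 3.

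Pdgfrb, the receptor of pericytes and other mural cells (ENSMUSG00000024620, on chromosome 18), had 50.75, 56.02 and 59.55 FPKM in controls and 43.18, 34.03 and 58.47 in deleted replicates 1 to 3. Again deleted replicates 1 and 2 were below every control and replicate 3 was among them. The deleted mean of 45.2 ± 12.3 FPKM (SD, n = 3) was 81.58% of the control mean. That is -0.32 on the log2 scale (SE 0.19, 95% interval -0.77 to 0.13; limma adjusted p 0.922). Leaving out deleted replicate 2 gave -0.14, and leaving out deleted replicate 3 gave -0.52.

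**Figure D2:**
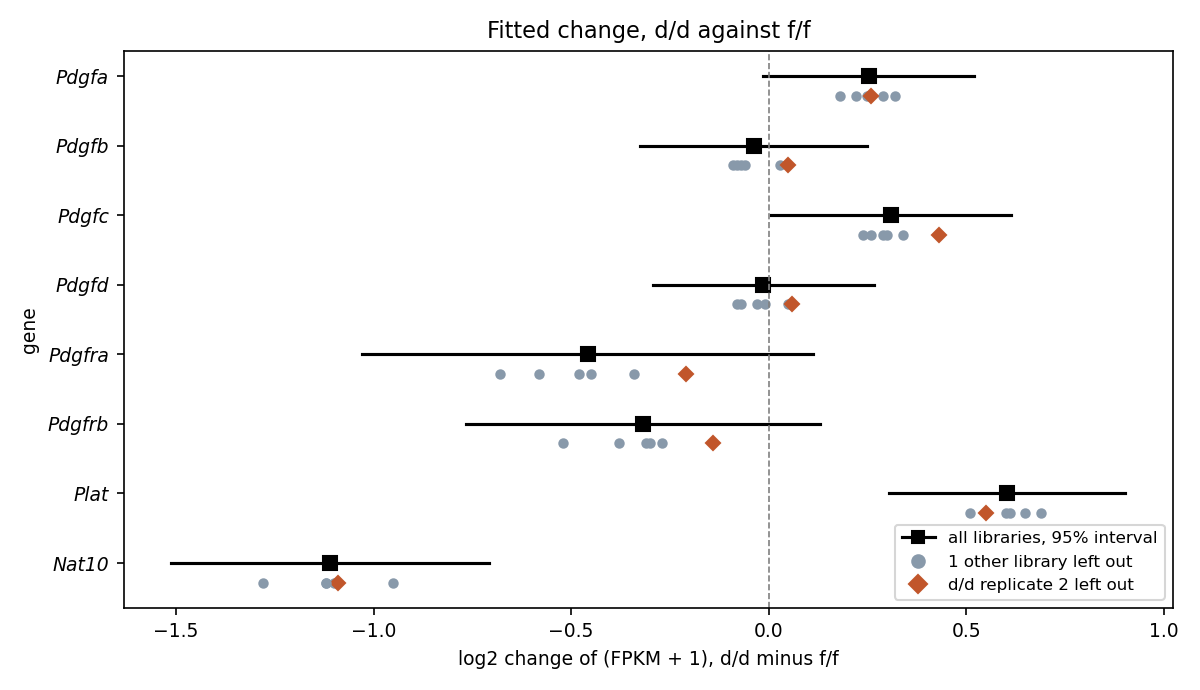
Log2 change of FPKM + 1 in d/d against f/f (x axis) for the 6 PDGF genes, the PDGF-C activator Plat and the targeted gene Nat10 (y axis). Squares and lines are the fit on all libraries with its 95% interval, and smaller symbols are fits with 1 library left out, orange diamonds being those without deleted replicate 2. The receptor changes move towards 0 without that library, to -0.21 for Pdgfra and -0.14 for Pdgfrb, and the Pdgfc change moves away from 0, to 0.43.

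The receptor genes varied together across libraries. Pearson's r between Pdgfra and Pdgfrb on the log2 scale was 0.923 over the 6 libraries and 0.734 over the 5 without deleted replicate 2, values that share each library's depth and tissue composition. The difference of log2(FPKM + 1) between Pdgfra and Pdgfrb, given here as their log2 ratio, was 0.62, 0.21 and 0.62 in controls and 0.42, 0.21 and 0.4 in deleted replicates 1 to 3, a difference of -0.14 with overlapping groups (exact permutation test, two-sided, p = 0.3, where the smallest possible p is 0.1). The difference was -0.07 without control replicate 1, control replicate 3 or deleted replicate 2, and -0.27 without control replicate 2. The Pdgfc to Pdgfa log2 ratio was 0.28, 0.26 and 0.34 in controls and 0.29, 0.12 and 0.64 in deleted replicates 1 to 3, a difference of 0.06 (exact permutation p = 0.8).

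Summed over genes, the mean ligand level was 88.7 ± 2.73 FPKM in controls and 102 ± 9.34 in deleted uteri, and the mean receptor level 134 ± 15.6 and 104 ± 31.2 (SD, n = 3). The 4 ligands summed to 91.84, 86.98 and 87.25 FPKM in controls and 109.8, 91.6 and 104.5 in deleted replicates 1 to 3. The 2 receptors summed to 129.4, 121.1 and 151.3 in controls and 101.5, 73.54 and 135.8 in deleted replicates 1 to 3. The receptor sum was above the ligand sum in all controls and in deleted replicate 3, and below it in deleted replicates 1 and 2. The receptor sums of the groups overlapped. The ligand sums overlapped as well, since deleted replicate 2 lay just under the highest control. Both sums were computed after the values were seen.

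In whole tissue, fewer cells of a type and less RNA per cell cannot be told apart. Pdgfra, Pdgfrb, Pdgfb and Pdgfa were therefore each set beside markers of a cell type known to express them. The stromal fibroblast list had a median log2 change of -0.28, with 13 of its 14 genes lower, beside 5486 of 12640 genes tested, and none called. Without deleted replicate 2 the median was -0.47 with 1 gene called by limma (of 12 called among the 12531 tested in that fit), and without deleted replicate 3 it was -0.18 with 0 called. Set against the control mean, the median of the list lay at -0.42, -0.04 and -0.45 log2 units in deleted replicates 1 to 3, whereas Pdgfra lay at -0.41, -0.96 and -0.01. Pdgfra and the list were thus both lower in replicate 1, Pdgfra alone was low in replicate 2, and the list alone was low in replicate 3. Pdgfra minus the list median was -0.98, -1.16 and -0.83 log2 units in controls and -0.97, -1.87 and -0.81 in deleted replicates 1 to 3, so deleted replicate 2 lay far below the control range and replicates 1 and 3 in it or just above it. The group difference was -0.23 (exact permutation p = 0.9), and 0.1 without deleted replicate 2.

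Individual stromal genes diverged in deleted replicate 2. Dcn, which encodes the matrix proteoglycan decorin, had 645.7 FPKM there against 1033 to 1115 in controls and 1160 and 1197 in the other deleted libraries. Col1a1, a fibrillar collagen chain, had 983.9 FPKM there against 677.3 to 765.3 in controls and 393.7 and 361.1 in deleted replicates 1 and 3. The lowest Pdgfra level thus came in the library with the lowest Dcn and the highest Col1a1 level. The same library had the highest proliferation and p53 target sums given above, and the part of either in the Pdgfra value was not tested.

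Pdgfrb was compared with 10 pericyte and mural markers, whose summed level was 590 to 667 FPKM in controls and 547 to 629 in deleted libraries. The list had a median log2 change of -0.1, with 6 of 10 lower and none called. Pdgfrb minus the list median was 0.81, 0.92 and 0.99 in controls and 0.61, 0.43 and 0.94 in deleted replicates 1 to 3. It was below every control in deleted replicates 1 and 2 and inside their range in replicate 3. The group difference was -0.24 (exact permutation p = 0.3), and it was -0.13 without deleted replicate 2 and -0.39 without deleted replicate 3. Fibroblasts also carry the beta receptor, and Pdgfrb was not set against the stromal list in this way. In deleted replicates 1 to 3 Pdgfrb lay at -0.35, -0.69 and 0.08 log2 units from the control mean. The mural median lay at -0.06, -0.21 and -0.02 there, and the stromal median at -0.42, -0.04 and -0.45.

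Pdgfb was compared with 10 endothelial markers, which summed to 414 to 477 FPKM in controls and 371 to 472 in deleted libraries. Their median log2 change was -0.17 (-0.29 without deleted replicate 3), with 9 of 10 lower, beside 5486 of 12640 genes tested, and none called. Kdr, a receptor for vascular endothelial growth factor, showed the smallest p of the list (0.00156, limma adjusted p 0.806). Pdgfb minus the list median was -1.43 ± 0.19 in controls and -1.42 ± 0.1 in deleted libraries (SD, n = 3), a difference of 0.01 (exact permutation p = 0.9). With the mean of the list in its place it was 0.15 (exact permutation p = 0.3).

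Pdgfa was compared with 11 epithelial markers, 7 of them higher and 4 lower, with a median log2 change of 0.1 and none called. Of the 11, 4 were above every control (Epcam, Cldn7, Esrp1 and Wnt7a) and 1 below (Foxa2), all named after their values were seen, beside 6.12% and 4.6% of all genes tested. The part of these in the Pdgfa value was not tested. The list median was 0.21 without deleted replicate 2, 0.18 without control replicate 3 and 0.04 without control replicate 1. Pdgfa minus the list median was -0.87 ± 0.15 in controls and -0.93 ± 0.11 in deleted libraries (SD, n = 3), a difference of -0.05 (exact permutation p = 0.7). With the mean of the list in place of its median the difference was 0.14. Markers of other cells also varied: 5 platelet genes, from cells rich in PDGF protein, summed to 13.9 to 19 FPKM in controls and 6.08 to 21 in deleted libraries. The 8 macrophage and leukocyte markers summed to 162 to 217 and 146 to 216. The 4 mesothelial markers (3 lower, 1 higher) had a median log2 change of -0.41, with 2 below every control, beside 4.6% of all genes tested. The 3 tested fat cell markers had a median of -0.83, and of 0.25 without control replicate 1. The part of these cells in the PDGF values was not tested.

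**Figure D3:**
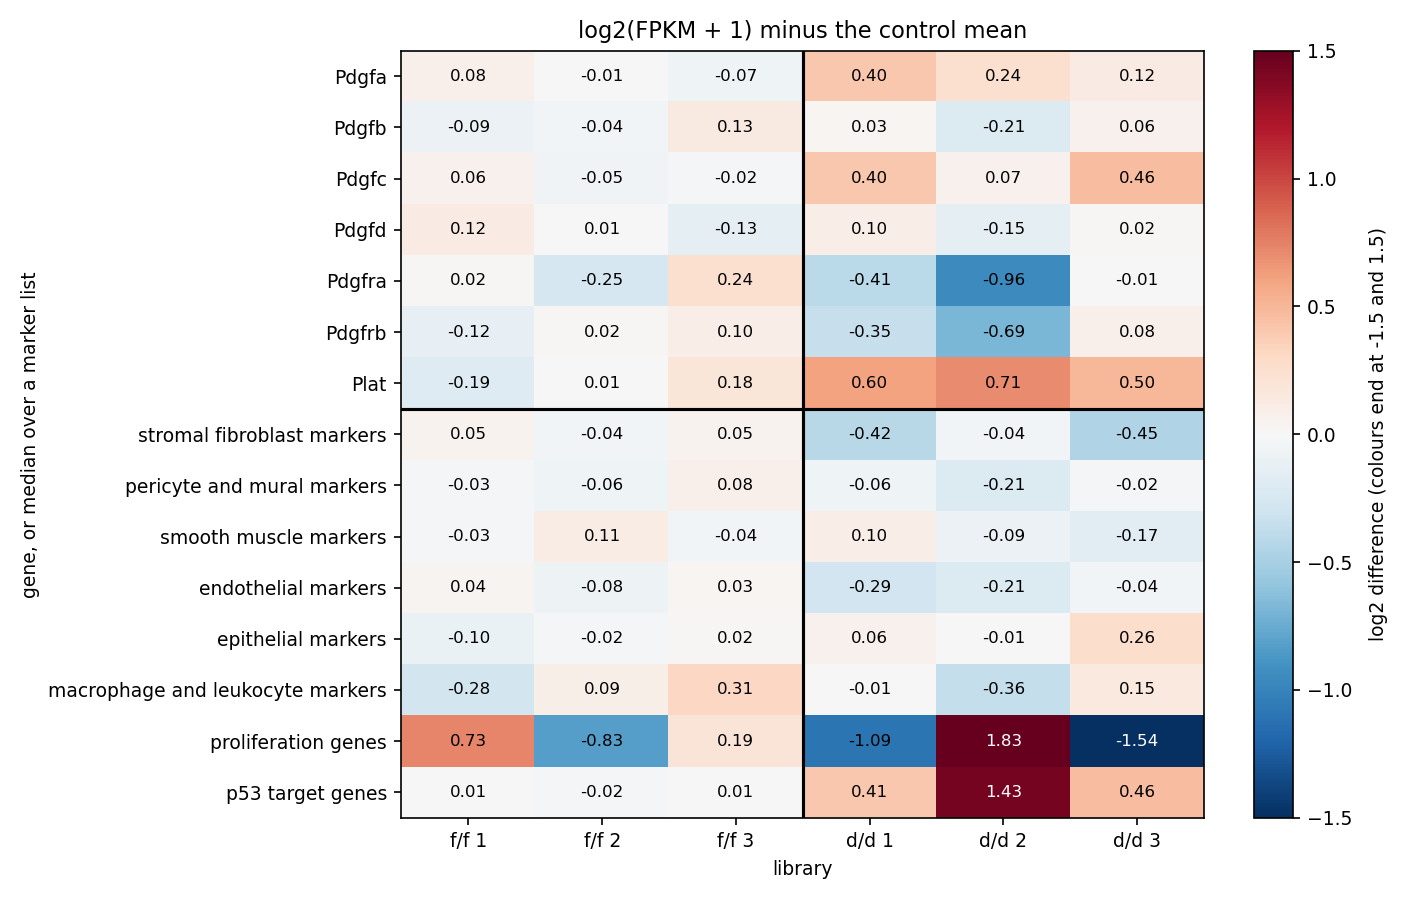
Log2(FPKM + 1) minus the control mean (cell numbers and colours) in the 6 libraries (x axis) for the PDGF genes and Plat (above the line) and as the median over each marker list (below it). Pdgfra and Pdgfrb are lowest in deleted replicate 2, at -0.96 and -0.69, where the stromal fibroblast median is -0.04 and the proliferation median 1.83.

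Among 11 genes that act on the ligands or assist the receptors, the groups did not overlap for 1, Plat, beside 10.7% of all genes tested. Plat, the tissue plasminogen activator that cuts latent PDGF-C, had 72.31, 83.12 and 93.36 FPKM in control replicates 1 to 3 and 125.7, 135.2 and 117.2 in deleted replicates 1 to 3. Every deleted library was above every control, also under each scaling tried. The deleted mean was 152% of the control mean, a log2 change of 0.6 (SE 0.13, 95% interval 0.3 to 0.9; unadjusted p 0.00185). Over all genes the limma adjusted p was 0.806, so Plat was not called. Plasminogen activator has many substrates besides PDGF-C, and the data hold no measure of protein cleavage.

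Of the 11 genes for ligand processing and co-receptors, 0 were called, 3 were higher and 8 lower, and the median log2 change was -0.09, beside 0.03 over all genes tested. With 1 library left out the median ran from -0.04 (without deleted replicate 1) to -0.15 (without deleted replicate 3), and with array quality weights it was -0.21. Plau, the urokinase that activates PDGF-D, had 2.143 to 2.714 FPKM in controls and 1.218 to 3.291 in deleted libraries. Furin, which cuts the A and B chains, had 28.89 to 30.43 FPKM in controls and 23.32, 25.29 and 34.72 in deleted replicates 1 to 3, values on both sides of the control range. The related convertases Pcsk5 and Pcsk6 had log2 changes of -0.09 and -0.06.

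Lrp1, a large endocytic receptor that associates with the beta receptor, had 52.56, 54.51 and 62.22 FPKM in controls and 36.23, 37.19 and 56.11 in deleted replicates 1 to 3. As for both PDGF receptors, deleted replicates 1 and 2 were below every control and replicate 3 was among them. The log2 change of Lrp1 was -0.4 with an SE of 0.18 (limma adjusted p 0.922). Leaving out deleted replicate 3 gave -0.6. Nrp1, a co-receptor of several growth factors, had a change of -0.03. Sparc and Thbs1, matrix proteins that bind PDGF, had changes of -0.36 and 0.01, and A2m, a plasma protease inhibitor that also binds PDGF-B, one of -0.73 with control values from 6.892 to 29.63 FPKM. Over the 16 alternative fits the change ran from -0.64 to -0.16 for Sparc and from -1.27 to -0.1 for A2m.

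Genes downstream of the receptors showed 0 calls. Among 32 adaptors and effectors, 14 were higher and 18 lower, with a median log2 change of -0.01. The groups did not overlap for 4 of the 32, beside 10.7% of all genes tested. Named after their values were seen, these were Nras (0.12), higher in deleted uteri, and the kinases Fyn (-0.25) and Jak1 (-0.15) and the transcription factor Stat5a (-0.2), lower (log2 changes). Grb2, the adaptor that couples the receptors to Ras, had 37.15 to 40.74 FPKM in controls and 36.61 to 41.61 in deleted libraries (log2 change -0.01). Plcg1, a phospholipase recruited by both receptors, had a change of 0 with a wider spread in deleted libraries, from 20.44 to 36.73 FPKM against 25.26 to 27.5 in controls. Src (-0.02), the phosphatase Ptpn11 (-0.09), the phosphoinositide 3-kinase subunit Pik3r1 (-0.14) and Stat3 (0.07) had small log2 changes.

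Of 13 attenuators of the signal, 5 were higher and 8 lower, with a median of -0.01. The ubiquitin ligase Cbl (-0.06), the phosphatase Ptpn2 (0.13), the Ras GTPase activator Rasa1 (-0.01) and the Ras pathway inhibitor Spry4 (0.03) had small log2 changes.

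Of 12 tested early target genes, which PDGF and serum both induce, 10 were higher and 2 lower, beside 7154 and 5486 of 12640 genes tested. The median log2 change of the list was 0.16. It was -0.02 without deleted replicate 3 (11 genes tested), 0.25 without deleted replicate 2 (10 genes) and 0.09 without control replicate 3 (12 genes). It also depended on the filter, at 0.08 both with no filter (13 genes) and with at least 1 FPKM required in every library (10 genes). Egr2 and Ccl2, named after their values were seen, are among the 10 higher. Both reached 1 FPKM in more deleted than control libraries. Fosb was the 1 gene of this list that did not pass the filter. Fos, a subunit of the AP-1 transcription factor, had 1.797, 3.434 and 3.505 FPKM in controls and 5.618, 6.01 and 5.861 in deleted replicates 1 to 3. The deleted libraries lay close together and above every control, with a mean 200.2% of the control mean and a log2 change of 0.84 (SE 0.2; unadjusted p 0.0036; limma adjusted p 0.922). Plaur, named after its values were seen, was also higher without overlap, with a log2 change of 0.25. So was Egr2, but it was under 1 FPKM in every control and passed the filter only through the deleted libraries, so its separation follows from the filter. With Fos these make 3 of the 12 tested genes, beside 6.12% of all genes tested. Egr1 had 14.34 to 17.71 FPKM in controls and 15.44, 18.23 and 28.45 in deleted replicates 1 to 3, a change of 0.34 that ran from 0.1 to 0.52 over the alternative fits. Myc went the other way, with 48.8 to 59.74 FPKM in controls and 44.32, 36.55 and 50.54 in deleted replicates 1 to 3 (log2 change -0.32, and -0.19 without deleted replicate 2).

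The receptor kinases most closely related to the PDGF receptors had lower FPKM levels than Pdgfra and Pdgfrb in every library. Kit had 3.282 to 5.126 FPKM in controls and 3.218 to 4.028 in deleted libraries, and Csf1r, a receptor of macrophages, 10.49 to 15.69 and 8.046 to 15.78. Flt3 was under the filter. With their ligand genes Kitl (log2 change -0.02), Flt3l (-0.06) and Csf1 (0.18), the list held 5 tested genes, none of them called. Its median log2 change was -0.06, and 0.13 without deleted replicate 2 or 0.05 without control replicate 3.

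**Figure D4:**
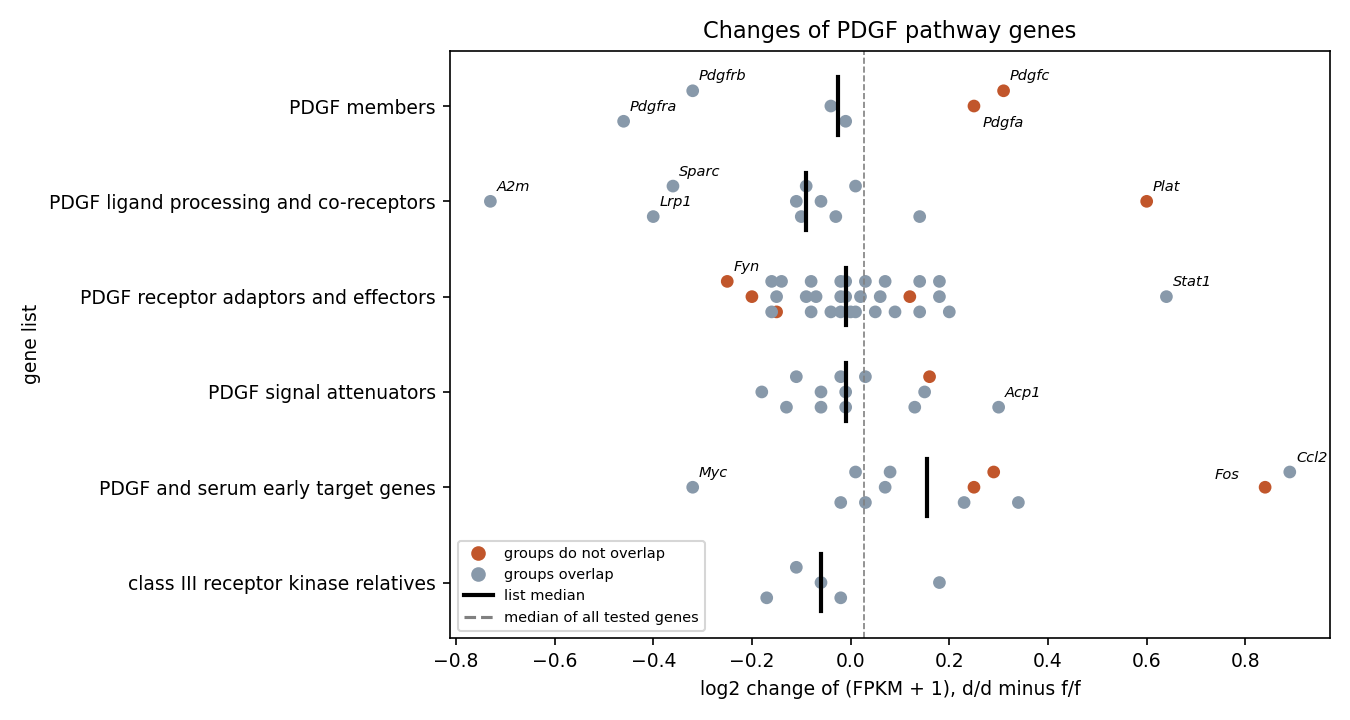
Log2 change of FPKM + 1 in d/d against f/f (x axis) for tested genes of 6 PDGF-related lists (y axis). Each point is a gene, orange where the 3 deleted and 3 control libraries do not overlap, vertical bars are list medians and the dashed line is the median of all tested genes, 0.03. Plat (0.6) and Fos (0.84) are the separated genes farthest to the right.

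The genes whose pattern over the 6 libraries was most like each PDGF gene were taken from 9996 others with a mean of at least 5 FPKM, by Pearson's r of log2(FPKM + 1). For Pdgfra they were Trip10 (r = 0.999), Efnb3 (0.998) and Zswim4 (0.995), and for Pdgfrb Vps13d (0.998), Prrc2c (0.994) and Iqsec1 (0.993). For Pdgfa they were Zfp942 (0.993), Smc5 (0.991) and Pex3 (0.99), and for Pdgfc Lmo4 (0.99), Xpa (0.985) and Kantr (0.979). For Pdgfb they were Slc7a8 (0.982), Myo1d (0.981) and Sfxn3 (0.979), and for Pdgfd Irf3 (0.983), Per2 (0.981) and Mat2b (0.976). No PDGF gene was among the 3 nearest of another. These are the 3 highest of 9996 values of r for each gene, over only 6 libraries, which share depth and tissue composition, so the names are a description only.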

How the data were processed

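Poly(A) RNA from whole uterus was extracted with TRIzol and made into libraries with the TruSeq kit, per the labels' protocols. The authors deposited 1 table of FPKM per library. HISAT2 2.2.1, Cufflinks 2.2.1 and mm10 are named in the submitters' processing notes, and the FPKM unit was taken from these and the values. The annotation, gene filter and strand setting are not given in the sources used here. Total reads are unknown, so no counting intervals are given. The most frequent ratio of low values (value times exon length under 100, window 0.01) put the deepest library at 1.26 times the shallowest. FPKM sums ran from 500764 to 549263.

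Values were analysed as log2(FPKM + 1) with limma 3.58.1 (trend, two-sided) in R 4.3.3, on genes with at least 1 FPKM in at least 3 libraries, and with exact permutation for single values. On simulated data with this comparison's spread and 12640 genes, 10.4% of genes changed by 0.5 log2 units, 85.4% of those changed by 1 and 97.6% of those changed by 1.5 were called. The simulation drew independent normal noise for each gene, without an outlying library such as deleted replicate 2. The shares called in it are therefore not known to hold for the real libraries, where Nat10 (log2 change -1.11) was not called. Python 3.11.15 was used for the rest. The PDGF genes, the lists and the tests were chosen with earlier results of these data known. Named were Nat10, the 6 PDGF genes, preset pathway genes and for each PDGF gene the 3 most alike. Some preset genes are not reported here. Other genes (such as Kdr, Dcn, Col1a1, Fyn, Kitl and Plaur) were chosen after their values were seen. Of the gene identifiers, 20572 matched GENCODE M21 and 65 did not. RefSeq promoter windows were found for Pdgfa, Pdgfc, Pdgfd and Pdgfra. The alternatives were another pseudocount, 3 scalings, 2 filters, 2 variance models, array weights, a block for the replicate number, and the omission of 1 library at a time.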

Additional observations from a re-analysis of the deposited data

How the results depend on the processing

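No gene was called by limma in the 16 alternative fits other than array quality weights (316 genes) and leaving out deleted replicate 2 (12 genes). Leaving out 1 library gave 0 to 12. No PDGF gene was called in any fit. With array weights, which gave deleted replicate 2 a weight of 0.224 and deleted replicate 1 a weight of 3.74, Nat10 (-1.09, limma adjusted p 0.0386) and Plat (0.63, limma adjusted p 0.0386) were called. There the limma adjusted p was 0.0522 for Pdgfc and 0.0575 for Pdgfa, and it ranged up to 1 for both over the other fits. Pdgfa, Pdgfc, Pdgfra and Pdgfrb kept the sign of their change in all 16 fits, as did Plat, Lrp1, Fos and Myc, whose fits were added after their values were seen. With 1 library left out, Pdgfa ran from 0.18 to 0.32, Pdgfc from 0.24 to 0.43, Pdgfra from -0.68 to -0.21 and Pdgfrb from -0.52 to -0.14.

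The sign turned with array weights for Pdgfb (0.04) and Pdgfd (0.05). With 1 library left out, Pdgfb ran from -0.09 to 0.05, Pdgfd from -0.08 to 0.06, the Pdgfc to Pdgfa log2 ratio from -0.09 to 0.17, the Pdgfra to Pdgfrb log2 ratio from -0.27 to -0.07, Pdgfrb relative to mural markers from -0.39 to -0.13, Pdgfra relative to stromal markers from -0.43 to 0.1, Pdgfb relative to endothelial markers from -0.09 to 0.09 and Pdgfa relative to epithelial markers from -0.12 to 0.03. The sign turned for Pdgfb without control replicate 3 or deleted replicate 2, for Pdgfd without control replicate 1 or deleted replicate 2, and for the Pdgfc to Pdgfa ratio without deleted replicate 3. It turned for Pdgfra relative to stromal markers without deleted replicate 2, for Pdgfb relative to endothelial markers without control replicate 1, deleted replicate 1 or deleted replicate 3, and for Pdgfa relative to epithelial markers without control replicate 1. With the mean of the marker list Pdgfa relative to epithelial markers was 0.14 and Pdgfb relative to endothelial markers 0.15. The cause was not tested. With array weights, among the marker and gene lists, 2 of 14 stromal, 1 of 10 mural, 2 of 10 endothelial, 2 of 11 epithelial, 1 of 4 mesothelial and 3 of 10 p53 target genes were called, beside 316 of 12640 genes tested. Of 27 named pathway genes, 15 changed sign in at least 1 fit.

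Deviations from the group means had r = -0.341, -0.0287 and 0.1 between same-numbered libraries, for numbers 1 to 3. The labels do not say whether these libraries share more than a number. With group means taken over 3 libraries each, such values cannot decide it. With the replicate number as a block, 0 genes were called and 726 had an unadjusted p under 0.05. With the block the changes were -0.46 for Pdgfra and 0.31 for Pdgfc (limma adjusted p 0.849 for both). The SE of the Pdgfra change was 0.13 with the block and 0.24 without it. Its unadjusted limma p was 0.013 with the block and 0.1 without it. Total depth is unknown, so the counting error of low values such as that of Plau cannot be given.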

Other observations

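Pdgfrl, a gene for a secreted protein related to the outer part of the PDGF receptors, was examined after its values were seen. It had 25.39, 18.86 and 28.66 FPKM in control replicates 1 to 3 and 23.6, 15.34 and 25.71 in deleted replicates 1 to 3. The groups overlapped, and deleted replicate 2 was the lowest library, as it was for both receptor genes. The difference for Pdgfrl was -0.18 log2 units with an SE of 0.22 and was not called (limma adjusted p 0.953).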
